A study of Mus musculus with 11 samples.

Results

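The genes described here are 7 genes whose loss gives cystic kidneys or defective cilia: Pkd1, Pkd2, Pkhd1, Bicc1, Invs, Ift88 and Glis3. They were chosen by name, and each was read through the Affymetrix probe sets that the platform annotation gives to that gene symbol alone. For 6 of the 7 genes there were 10 probe sets, with 3 each for Bicc1 and Invs and 1 each for Pkd1, Pkhd1, Ift88 and Glis3. Pkd2 had no probe set named for it here and was not analysed. The probe set with the highest mean over the arrays, called the main probe set, stood for each gene, so that the 6 genes are among 18193 genes measured.

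The study set Robo2 homozygous against wild-type mouse kidneys, all labelled embryonic day 17, with RNA of each sample on 1 array (11 arrays). Robo2 encodes a receptor for the secreted guidance protein Slit, and the labels do not name the Robo2 allele. By source label and title the groups were R2NB homozygous (3 arrays, replicates 3, 4 and 5), R2E17 homozygous (1), R2E17 wild-type (1), E17R2 homozygous (3, replicates 2, 8 and 9) and E17R2 wild-type (3, replicates 1, 3 and 7). The letters NB are not explained in the labels. R2NB has no wild-type array of its own. The labels do not say that the replicates came from separate animals, so each p-value rests on the spread between samples alone, and that spread may be technical. Some free-text labels speak of human brain, against the organism, source and tissue labels, which were followed. Of 8 brain markers, 5 or 6 lay below the array median on every array, while 1 of 8 kidney markers did (Hoxb7, while Six2, Wt1, Cdh16 and Umod lay above it).

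In the kidney, most tubule and duct cells carry a primary cilium, a sensory antenna built from a basal body by intraflagellar transport. Polycystin-1 and polycystin-2, the products of Pkd1 and Pkd2, form a receptor and channel complex on the cilium, and fibrocystin, the product of Pkhd1, is a single-pass membrane protein of the cilium of ducts and tubules. Inversin marks a compartment of the cilium close to its base and is lost in a form of nephronophthisis. Ift88 is a core part of the transport trains. Bicc1 is an RNA-binding protein, and Glis3 is a zinc-finger transcription factor found at cilia, and loss of either gives kidney cysts in mice.

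The arrays were taken to have been normalized in 2 sets, which is inferred from the values. Median intensities were 46.8 to 53.2 in the 5 arrays titled R2E17 or R2NB and 23.4 to 24.5 in the 6 E17R2 arrays. Without correction the median gene differed by 1.02 (log2, first set minus second). Pairs of arrays shared 4632 to 6872 identical values within the first set, 112 to 236 within the second and 0 between the sets. Values within a set are therefore given as log2 intensity, and values across the sets, with those of the R2E17 pair and its interaction, as log2 intensity minus the median of the same array. The set, the title series and the normalization cannot be told apart. In the wild-type R2E17 array the 3' minus 5' log2 signal was 0.70 for Gapdh and 1.12 for Actb, a sign of RNA or labelling quality, and in the other 10 arrays it was at most 0.22 and 0.75. Robo2 itself, which has its main probe set among the dim ones, had log2 intensities of 2.03, 2.37 and 2.33 in E17R2 homozygous kidneys, against 3.13, 3.68 and 3.16 in E17R2 wild-type kidneys, and 3.37 in the R2E17 homozygous kidney against 3.96 in the wild-type one. The arrays labelled R2NB homozygous had 3.28, 3.86 and 3.99 in replicates 3, 4 and 5, so that replicates 4 and 5 stood at the level of the R2E17 wild-type array. Their genotype is taken from the source label alone, and whether this probe set reads the altered part of Robo2 is not known from the labels.

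Promoter sequence from RefSeq (GRCm38.p6) was at hand for 6 of the 7 genes, Bicc1 being the one without an entry. A pair of windows, each running from 250 bases before the annotated start of the gene to 50 after it, is shown because these 2 genes gave the largest and the smallest difference between the array sets, and because each holds 1 match to a motif of factors known for cystic and ciliary genes. Capitals mark the match.
Pkhd1 promoter, chr1:20618008-20618307, minus strand: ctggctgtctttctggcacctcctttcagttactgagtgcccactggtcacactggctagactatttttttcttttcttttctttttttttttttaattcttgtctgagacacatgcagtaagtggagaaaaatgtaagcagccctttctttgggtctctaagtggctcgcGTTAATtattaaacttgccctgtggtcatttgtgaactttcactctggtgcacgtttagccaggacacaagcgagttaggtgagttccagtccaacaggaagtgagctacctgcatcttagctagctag
Ift88 promoter, chr14:57423821-57424120, plus strand: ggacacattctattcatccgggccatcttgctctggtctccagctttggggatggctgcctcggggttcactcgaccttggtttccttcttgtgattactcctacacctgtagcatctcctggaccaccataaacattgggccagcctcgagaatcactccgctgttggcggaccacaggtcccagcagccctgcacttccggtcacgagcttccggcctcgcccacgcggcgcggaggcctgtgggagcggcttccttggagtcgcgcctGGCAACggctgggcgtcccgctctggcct
The letters GTTAAT in the Pkhd1 window are 1 arm of the palindrome bound by HNF1 factors, and start at position -79 from the gene start on the same strand. This motif was found on either strand in 2332 of 32851 RefSeq promoter windows (7.10%). The letters GGCAAC in the Ift88 window are GTTGCC read on the opposite strand, 1 arm of the X-box bound by RFX factors, and start at position 22. That motif was in 4111 windows (12.5%). The motifs do not overlap, and none of the other 4 promoters held either. A match describes the letters and shows no binding, and the HNF1 genes were not analysed here.

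Between E17R2 homozygous and wild-type kidneys, no gene of the group passed the test. The point estimates were lower in homozygous kidneys for Pkhd1, Glis3 and Bicc1, higher for Pkd1, and close to 0 for Invs and Ift88. For Pkhd1 the log2 intensities were 7.18, 7.43 and 6.40 in homozygous replicates 2, 8 and 9, against 7.43, 7.66 and 7.26 in wild-type replicates 1, 3 and 7. Replicate 9 lay below every other array, and the other homozygous arrays lay within or just below the wild-type range. The difference was -0.44 ± 0.27 (log2, limma SE, 3 against 3, adjusted p = 0.840), with a 95% interval from -1.08 to 0.19.

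Glis3 had log2 intensities of 6.24, 6.46 and 5.87 in the homozygous arrays, against 6.55, 6.65 and 6.40 in the wild-type arrays. Homozygous replicate 9 was again the lowest, and replicate 8 overlapped the wild-type range. The difference was -0.34 ± 0.16 (adjusted p = 0.840, unadjusted p = 0.0713), with an interval from -0.73 to 0.04.

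Bicc1 had 10.38, 10.47 and 10.09 in the homozygous arrays, against 10.32, 10.51 and 10.42 in the wild-type arrays. Only homozygous replicate 9 lay outside the wild-type range, and the difference was -0.10 ± 0.12 (adjusted p = 0.898). Its other probe sets had differences of -0.21 ± 0.11 and -0.26 ± 0.12 (both adjusted p = 0.930 in a fit over 45037 probe sets), all in the same direction.

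Pkd1 ran the other way. Its log2 intensities were 6.42, 6.47 and 6.997 in the homozygous arrays, against 6.32, 6.40 and 6.32 in the wild-type arrays, so the groups did not overlap, as was the case in this direction for 5.05% of all genes. The margin between the groups was narrow except in replicate 9. The difference was 0.28 ± 0.16 (adjusted p = 0.840), with an interval from -0.10 to 0.67.

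Invs had 6.41, 6.50 and 6.34 in the homozygous arrays, against 6.42, 6.55 and 6.30 in the wild-type arrays. Ift88 had 6.20, 6.26 and 6.18 in the homozygous arrays, against 6.36, 6.10 and 6.20 in the wild-type arrays. For both genes the homozygous values lay inside the wild-type range. The differences were -0.01 ± 0.10 for each (adjusted p of 0.996 for Invs and 0.993 for Ift88), with intervals from -0.24 to 0.23 for Invs and from -0.24 to 0.22 for Ift88.

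Over all genes, 0% of 18193 passed an adjusted p of 0.05 in this limma fit, and 1019 had an unadjusted p under 0.05 (5.6%). None of the 6 genes had one. Without homozygous replicate 9 the differences were -0.14 for Pkhd1, -0.18 for Glis3, 0.01 for Bicc1 and 0.10 for Pkd1, so each of these 4 estimates moved by more than 1.5 times. In that array 10 smooth muscle markers averaged 2.96 (log2) above the mean of the E17R2 set, while the other 5 E17R2 arrays lay between -1.04 and -0.39. The same array had 9 proximal tubule markers 1.03 below the set mean and 9 collecting duct markers 0.43 below it. Summed over the list, smooth muscle marker intensity ran from 4562 to 41210 in E17R2 homozygous arrays and from 5512 to 5984 in E17R2 wild-type arrays. Proximal tubule marker intensity summed to 1445 to 2992 in the homozygous arrays and 3606 to 4185 in the wild-type arrays. Stroma marker intensity (10 genes, Acta2 also among the smooth muscle markers) summed to 21060, 21890 and 36230 in homozygous replicates 2, 8 and 9. In the wild-type arrays it summed to 18260 to 19700. The stroma markers had a median difference of 0.35, with 1 of the 10 below the median of all genes, and 0 passed the test. All 9 proximal tubule markers had lower means in the homozygous arrays, by a median of 0.76 on the log2 scale, and 0 of the 9 passed the test. Adrenal marker intensity summed to 3821 and 3267 in wild-type replicates 1 and 3 and 1166 in homozygous replicate 2. It was 351 in wild-type replicate 7 and 337 and 379 in homozygous replicates 8 and 9. All 10 adrenal markers had lower means in the homozygous arrays (median difference -1.23), and 0 passed the test. The part of this tissue makeup in the values of the 6 genes was not tested. In these bulk samples, fewer cells of a type and less RNA per cell cannot be told apart.

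**Figure D1:**
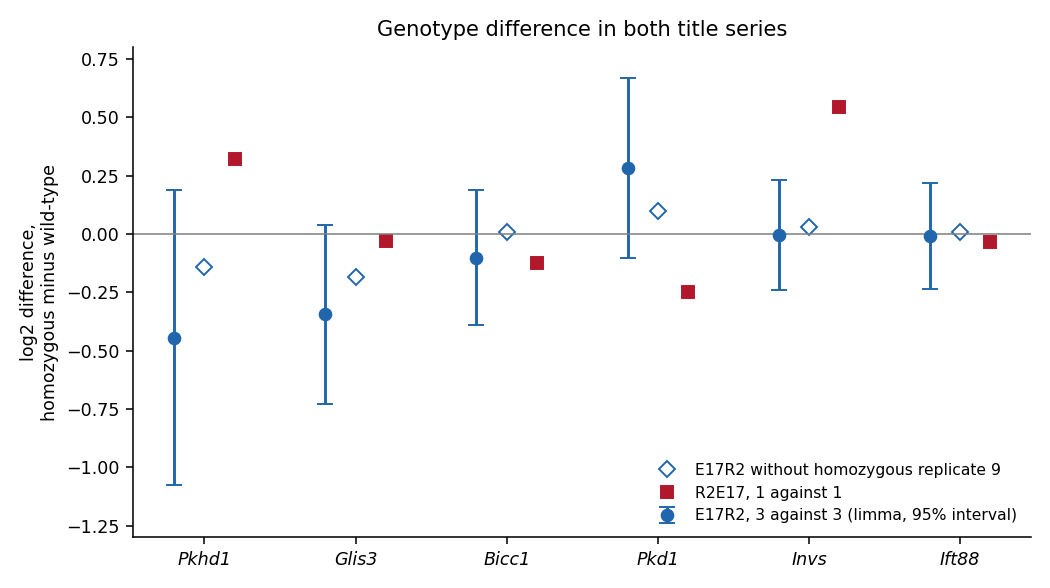
Log2 difference of homozygous minus wild-type kidneys for the main probe set of each gene. Filled circles are the E17R2 difference with its 95% limma interval (3 against 3), open diamonds the E17R2 difference without homozygous replicate 9, and squares the difference of the single R2E17 arrays after median centring. Every interval spans 0, and the diamonds lie nearer to 0 than the circles for Pkhd1, Glis3, Bicc1 and Pkd1.

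The R2E17 pair gave 1 array a genotype, so it has no replicate check and no test. After median centring, Pkhd1 was at 4.37 in the homozygous and 4.05 in the wild-type kidney, a difference of 0.32, whereas the E17R2 estimate was below 0. Invs was at 2.01 in the homozygous and 1.47 in the wild-type kidney, a difference of 0.54 and the largest of the 6. The other Invs probe sets, both dim, went the other way, at -0.56 for 1444709_at and -0.28 for 1460491_at. Pkd1 was at 2.07 in the homozygous and 2.32 in the wild-type kidney, a difference of -0.25. Bicc1, Ift88 and Glis3 differed by -0.12, -0.03 and -0.03, and the median gene by 0.10. The other Bicc1 probe sets differed by -0.04 for 1423484_at and -0.50 for 1441137_at. The centring sets part of these sizes: with no centring Pkd1, Bicc1, Ift88 and Glis3 differed by -0.34, -0.21, -0.12 and -0.12, and after quantile normalization over the pair by -0.43, -0.25, -0.19 and -0.21. Pkhd1 and Invs differed by 0.23 and 0.46 with no centring and by 0.17 and 0.38 after quantile normalization. None of the 6 genes reached a log2 difference of 1 in either direction, as 2.44% of all genes did. The wild-type array of this pair is the one with the high 3' minus 5' signals given above, and the part of RNA quality in these differences was not tested.

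Whether the genotype difference itself differed between the title series was tested as an interaction (E17R2 difference minus R2E17 difference, limma over 8 arrays). It was -0.56 ± 0.23 for Invs, with an unadjusted p of 0.0427 and an adjusted p of 0.364. It was -0.77 ± 0.55 for Pkhd1 (adjusted p = 0.653) and 0.52 ± 0.31 for Pkd1 (adjusted p = 0.570). Bicc1, Ift88 and Glis3 had interaction values of 0.01, 0.01 and -0.33, with adjusted p from 0.799 to 0.995. None of the 6 genes passed, against 0.066% of all genes, and 12.9% of all genes had an unadjusted p under 0.05, as Invs did. The single R2E17 arrays were assumed to vary like the E17R2 arrays, and the intervals were wide, from -2.07 to 0.52 for Pkhd1. The other Invs probe sets, both dim, had interaction values above 0, at 0.46 for 1444709_at and 0.10 for 1460491_at.

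Between the array sets the genes parted. Pkhd1, Glis3 and Bicc1 were higher in the R2E17 and R2NB arrays than in the E17R2 arrays, and Pkd1, Invs and Ift88 did not pass the test. In the contrast of the sets with genotype as a term, 3 of the 6 genes were called higher and none lower, against 22.4% of all genes called higher and 32% called lower. Calls were thus common: 54.4% of all genes passed in either direction, and 41.2% of those calls were higher. All 6 genes are among the 12164 with a mean percentile of 50 or more, of which 28.4% were called higher and 17.8% lower. With the deposited values left uncentred, 99.4% of calls over all genes were higher. All contrasts here follow array medians, and the median gene was at -0.07.

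Pkhd1 stood at 4.77, 4.22 and 4.12 above the array median in R2NB replicates 3, 4 and 5, at 4.37 in the R2E17 homozygous array and at 4.05 in the R2E17 wild-type array. In the other set, E17R2 homozygous arrays averaged 2.41 ± 0.55 and E17R2 wild-type arrays 2.87 ± 0.24 (SD, n = 3 each). In order of level the R2NB and R2E17 homozygous arrays stood together at 4.37, and the SD of R2NB, 0.35, exceeds the step to the R2E17 wild-type array. The lowest array of the first set, 4.05, lay above the highest of the second, 3.11. The contrast was 1.72 ± 0.22 (log2, 3.30-fold, adjusted p = 8.367e-05), with an interval from 1.23 to 2.21, and 0.671% of all genes had a higher contrast. On each array this probe set ranked between the 90.1 and 93.1 percentile of all probe sets in the first set and between the 69.9 and 81.4 percentile in the second.

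Glis3 averaged 2.66 ± 0.28 in R2NB arrays (SD, n = 3), with 2.65 in the R2E17 homozygous and 2.68 in the R2E17 wild-type array. It averaged 1.60 ± 0.31 in E17R2 homozygous and 1.95 ± 0.16 in E17R2 wild-type arrays (SD, n = 3 each). The sets did not overlap, with 2.43 the lowest of the first and 2.10 the highest of the second. The contrast was 0.96 ± 0.14 (1.95-fold, adjusted p = 1.792e-04). In order of level, the R2E17 and R2NB groups were within 0.03 of each other, and the E17R2 genotypes stood below them without passing the test between them.

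Bicc1 averaged 6.28 ± 0.13 in R2NB arrays (SD, n = 3), with 6.16 in the R2E17 homozygous and 6.29 in the R2E17 wild-type array, against 5.72 ± 0.21 in E17R2 homozygous and 5.83 ± 0.12 in E17R2 wild-type arrays (SD, n = 3 each). Again the lowest array of the first set, 6.16, lay above the highest of the second, 5.96. The contrast was 0.51 ± 0.09 (1.42-fold, adjusted p = 8.762e-04). Groups of arrays that do not overlap in this direction were found for 16.4% of all genes. The other Bicc1 probe sets had contrasts of 0.66 ± 0.11 for 1423484_at (adjusted p = 2.771e-04) and 1.41 ± 0.12 for 1441137_at (adjusted p = 5.206e-06), so the 3 probe sets had the same direction and differed in size.

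Pkd1 ran from 1.99 to 2.32 in the R2E17 and R2NB arrays and from 1.71 to 2.38 in the E17R2 arrays, and its contrast was 0.23 ± 0.13 (adjusted p = 0.139). Without E17R2 homozygous replicate 9, the highest Pkd1 array of its set, the contrast was 0.37 and passed the test (adjusted p = 0.0061). Without the R2E17 wild-type array it was 0.091 (adjusted p = 0.605), and after quantile normalization over the 11 arrays 0.13. Ift88 ran from 1.53 to 1.74 in the first set and from 1.55 to 1.78 in the second. Its contrast was 0.01 ± 0.07 (adjusted p = 0.899), with an interval from -0.15 to 0.17, and it was -0.09 after quantile normalization over the 11 arrays and 1.10 with no centring.

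Invs ran from 1.47 to 2.01 in the R2E17 and R2NB arrays and from 1.68 to 2.01 in the E17R2 arrays. The contrast of the main probe set was -0.15 ± 0.12 (adjusted p = 0.310), and it was 0.94 with no centring, -0.26 after quantile normalization (adjusted p = 0.0211) and -0.050 without the R2E17 wild-type array. The Invs probe sets disagreed: 1444709_at had 0.35 ± 0.19 (adjusted p = 0.131) and 1460491_at -0.54 ± 0.11 (adjusted p = 0.0014). Both are dim, with mean percentiles of 23.4 and 9.7, against 68.5 for the main probe set.

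**Figure D2:**
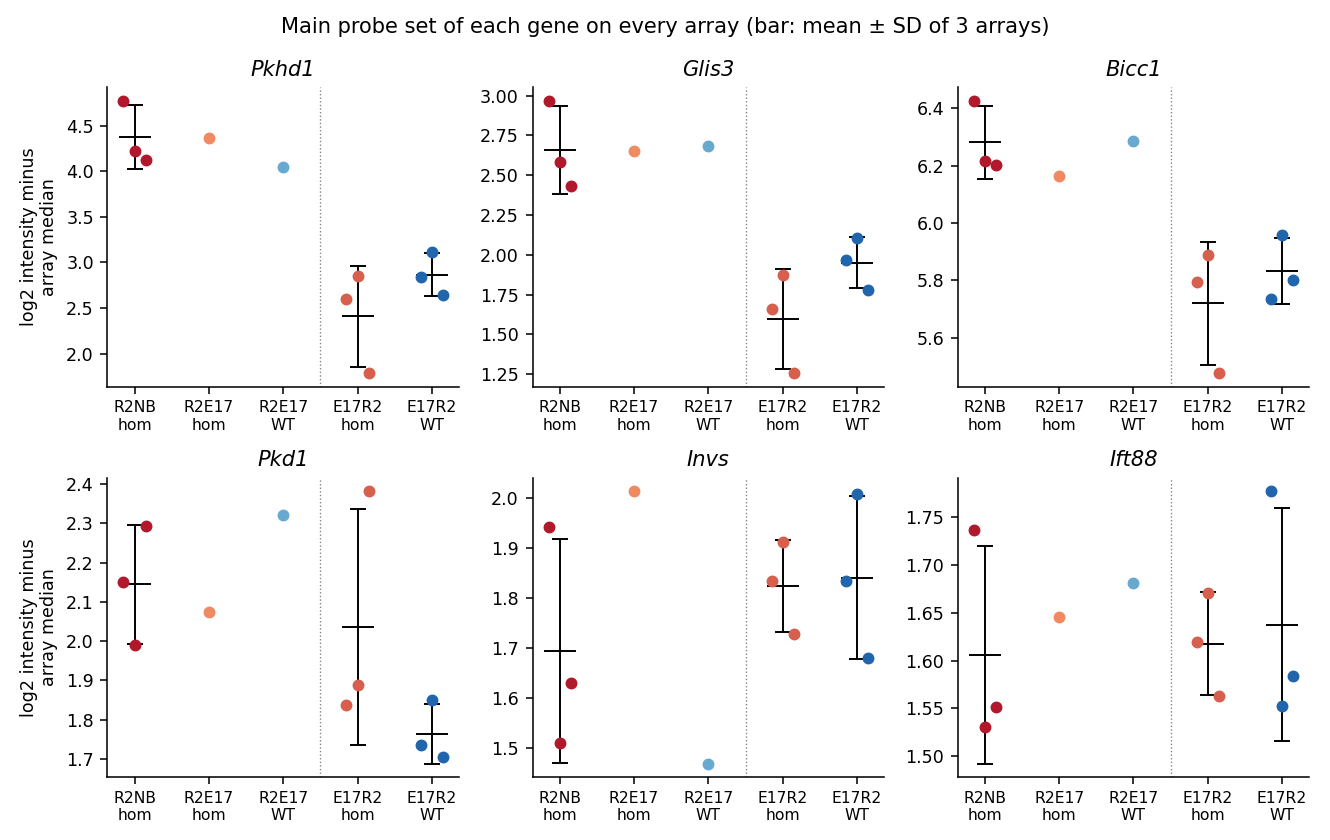
Log2 intensity minus the array median of the main probe set on every array, with the mean and SD where a group has 3 arrays; vertical axes do not start at 0 and differ between panels. The dotted line parts the array sets. For Pkhd1, Glis3 and Bicc1 all 5 arrays on the left lie above all 6 on the right, and for Pkd1, Invs and Ift88 the sets overlap.

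The contrast of Pkhd1, Glis3 and Bicc1 kept its direction and its call when each array was left out in turn, with ranges of 1.48 to 1.96 for Pkhd1, 0.84 to 1.06 for Glis3 and 0.43 to 0.56 for Bicc1. With the arrays labelled homozygous alone the contrasts were 1.96, 1.06 and 0.53 in the same order of genes. These equal the contrasts without the R2E17 wild-type array, where the genotype term takes up the E17R2 wild-type arrays, so they are not a separate check. Without the R2NB arrays they were 1.57, 0.89 and 0.45, and all 3 still passed. The called values are therefore not confined to the R2NB arrays, to the wild-type R2E17 array or to E17R2 homozygous replicate 9.

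Markers of tubule and duct segments moved with this contrast. Of 9 proximal tubule markers, such as Lrp2 and Cubn, which take up filtered protein, 8 were called higher in the R2E17 and R2NB arrays (median contrast 1.74). Their summed intensity was 19450 to 23520 in R2NB arrays, 23760 in the R2E17 homozygous and 16530 in the R2E17 wild-type array, and the sums of the E17R2 arrays given above are on the lower scale of that set. As a mean of centred log2 values the list stood at 4.87 to 5.26 in R2NB, 5.28 in R2E17 homozygous, 4.66 in R2E17 wild-type, 2.42 to 3.46 in E17R2 homozygous and 3.72 to 3.90 in E17R2 wild-type arrays. Of 9 collecting duct markers, such as the water channel Aqp2, 8 were called higher (median 0.80), and of 10 general epithelial markers 3 were (median 0.29). Of 10 stroma markers 1 was called higher, Pdgfra at 0.33, and 4 lower (median -0.17), with Lum at -1.715 and Dcn at -0.97. These 10 have a mean percentile above 50, where 28.4% of all genes were called higher and 17.8% lower. All 6 erythroid markers were called lower, down to -5.09 for the embryonic globin Hbb-y, and 6 of 9 gonad markers were called lower (median -1.002). Among them Hba-a1, Hbb-bh1, Epb42, Dazl, Ddx4, Fshr and Gata4 are dim, with a mean percentile under 50. In that range 60.5% of all genes were called lower and 10.4% higher. Hbb-y, Alas2, Slc4a1, Amh and Foxl2 have a mean percentile above 50. Of 10 adrenal markers 1 was called lower, and their summed intensity varied between arrays of 1 group, from 411 to 9108 in R2NB, from 337 to 1166 in E17R2 homozygous and from 351 to 3821 in E17R2 wild-type arrays, with 410 in the R2E17 homozygous and 454 in the R2E17 wild-type array. No marker of these lists was at 0. The part of tissue makeup in the contrast of Pkhd1, Glis3 and Bicc1 was not tested.

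**Figure D3:**
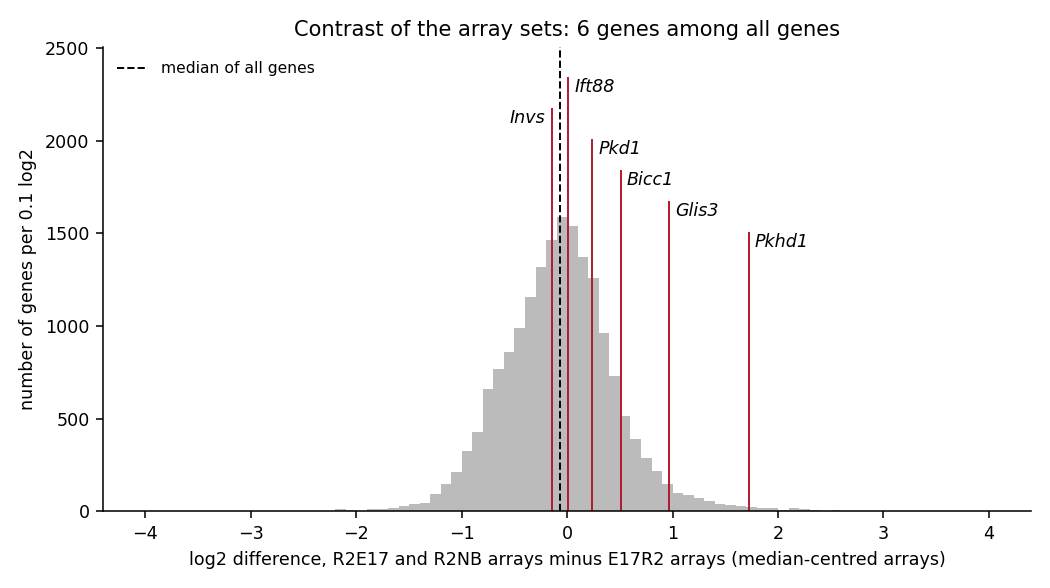
Contrast of the R2E17 and R2NB arrays minus the E17R2 arrays (log2, median-centred arrays, genotype as a term) for 18193 genes in bins of 0.1, with values past the ends of the axis counted in the end bins. Vertical lines mark the 6 genes; Pkhd1 at 1.72 and Glis3 at 0.96 lie in the upper tail, and Ift88 at 0.01 and Invs at -0.15 lie near the median gene at -0.07.

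**Figure D4:**
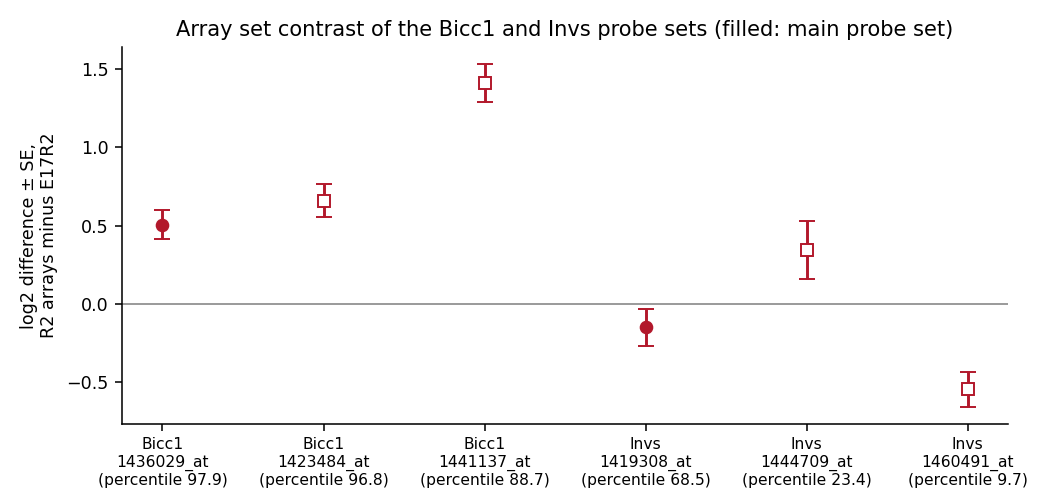
Contrast of the array sets (log2 ± limma SE) for the probe sets of Bicc1 and Invs, with the mean percentile of each among all probe sets. The 3 Bicc1 probe sets lie between 0.51 and 1.41, and the 3 Invs probe sets between -0.54 and 0.35.

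Within the R2E17 and R2NB set the arrays labelled R2NB homozygous could be set against the R2E17 homozygous array without crossing the array sets. The lone array was assumed to vary like the R2NB arrays. With median centring the Y-linked Kdm5d differed by 4.26 and Xist, made from the inactive X chromosome, by -6.13. These arrays may thus also differ in sex, which the labels used here do not give, and its part was not tested. Pkhd1 had log2 intensities of 10.32, 9.93 and 9.85 in the R2NB arrays, against 10.0 in the R2E17 homozygous array, a difference of 0.03 ± 0.25 (adjusted p = 1, interval from -0.81 to 0.87). Bicc1 had 11.97, 11.92 and 11.94 in the R2NB arrays, against 11.8 in the R2E17 homozygous array. All R2NB values lay above it but below the wild-type array at 12.01, and the difference was 0.14 ± 0.04 (unadjusted p = 0.0373, adjusted p = 0.639). Invs had 7.49, 7.22 and 7.36 in the R2NB arrays, against 7.65 in the R2E17 homozygous array, a difference of -0.29 ± 0.14 (adjusted p = 0.830). Pkd1, Ift88 and Glis3 differed by 0.10, -0.02 and 0.03. No gene of the 6 passed in this limma fit, and 0% of all genes did, with 1329 at an unadjusted p under 0.05 (7.31%).

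Other genes of the cilium and of the polycystin pathway were read from lists. In the E17R2 genotype comparison 0 of 78 other cilium genes (the nephronophthisis, transition zone, transport, motor and BBSome lists together) passed, with a median of -0.03 and a range from -0.48 to 0.19. The lowest was Dcdc2a, a doublecortin-domain gene of the nephronophthisis group, at -0.48 (unadjusted p = 0.0924, adjusted p = 0.840). Among polycystin partners the lowest was Cys1, which encodes cystin, the ciliary protein lost in the cpk mouse, at -0.52 (unadjusted p = 0.0684, adjusted p = 0.840). None of 12 hedgehog genes passed either, with Gli2 at 0.41 and Cdon at 0.52, both at an adjusted p of 0.840. Their unadjusted limma p was 0.0140 for Gli2 and 0.00968 for Cdon, and 5.6% of all genes had one under 0.05. The hedgehog list had a median of 0.19, with 2 of the 12 below the median of all genes. None of 15 genes of signalling downstream of the polycystins passed.

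In the contrast of the array sets, 24 of the 78 cilium genes were called higher (30.8%) and 11 lower (14.1%), with a median of 0.05. Of the 78, 77 have a mean percentile of 50 or more, where 28.4% of all genes were higher and 17.8% lower, with a median of 0.05, so the cilium genes were close to other genes of that range. Of 14 nephronophthisis genes, Invs among them, 5 were higher and 2 lower. Dcdc2a was at 0.99, Glis2, a relative of Glis3, at 0.64, and Nek8, the kinase of the inversin compartment, at 0.51, whereas Iqcb1 was at -0.50. Of 17 genes of the transport complex that holds Ift88 (IFT-B), 3 were higher (Ift52 at 0.43, Ttc26 at 0.34 and Ift27 at 0.33) and 1 lower (Hspb11 at -0.41). Ift88 at 0.01 was near the median of that list, -0.01. Of 7 genes of the retrograde complex IFT-A, 1 was higher, Wdr35 at 0.31.

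A list of 21 genes covers the transition zone, the gate at the base of the cilium, and genes of Joubert and Meckel syndromes. Of these, 7 were higher, with the dim Tmem67 (mean percentile 27.6) at 0.58, and 3 lower, with Kif7 at -0.67. Of 13 genes of the BBSome and its helpers, which carry membrane proteins in cilia, 6 were higher and 1 lower, with Rab3ip at 0.94 and Bbs2 at 0.59. Of 8 ciliary motor genes 2 were higher and 4 lower, and the subunits of 1 kinesin parted, with Kif3b at 0.44 and Kif3a at -0.41. Of 12 genes of motile cilia 2 were higher and 7 lower. Of these 12, 11 are dim, with a mean percentile under 50, where 10.4% of all genes were called higher and 60.5% lower.

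Of 16 polycystin partners, 3 were higher (Cys1 at 0.74, the glucosidase subunit Ganab at 0.59 and the glycosyltransferase Alg9 at 0.30). Another 3 were lower (Pkhd1l1, a relative of Pkhd1, at -0.78, Tsc2 at -0.65 and Alg8 at -0.38). Pkhd1l1 is dim, with a mean percentile of 17.3, in the range where 60.5% of all genes were called lower. Of 9 transcription factors linked to cystic genes, which include Glis3 itself and Glis2 from the nephronophthisis list, 5 were higher, these 2 among them, and 2 lower. Pax8 was at 0.68 and Rfx1 at -0.54. Of 15 genes downstream of the polycystins 9 were higher, with the lectin Lgals3 at 1.62 and the vasopressin receptor Avpr2 at 1.31, and 3 lower, with the adenylyl cyclase Adcy5 at -1.13. Avpr2 is also among the collecting duct markers. Of 12 hedgehog genes 2 were higher, the ligand Ihh at 1.20 and the ligand-binding Hhip at 1.06, and 6 lower, with the ligand Shh at -1.01.

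Across the 11 arrays, with each array set centred on its own mean, the Pearson correlation of Pkhd1 with Glis3 was 0.92, that of Glis3 with Bicc1 0.79 and that of Pkhd1 with Bicc1 0.75. Pkd1 ran against these genes, at -0.84 with Pkhd1 and -0.73 with Glis3. Ift88 lay between -0.22 and 0.19 with each of the others. These values are descriptions over 11 arrays, taken to share their normalization within a set. E17R2 homozygous replicate 9 has the lowest Pkhd1, Glis3 and Bicc1 and the highest Pkd1 of its set. Among 12164 genes at or above the middle of the intensity range, the most like Pkhd1 were Mfng (0.97), which encodes a sugar transferase acting on Notch, and Xrcc5 (0.95). The most like Glis3 were Pard6b (0.97), a cell polarity gene, and Fam107a (0.95), and the most like Bicc1 were Ica1 (0.97) and Penk (0.95). Pkd1 was most like Col5a1 (0.97) and Crtap (0.96), a collagen and a collagen-modifying gene. Invs was most like 1110002L01Rik (0.96) and Mre11a (0.95), and Ift88 was most like Gsk3a (0.94) and Tut4 (0.87).

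**Figure D5:**
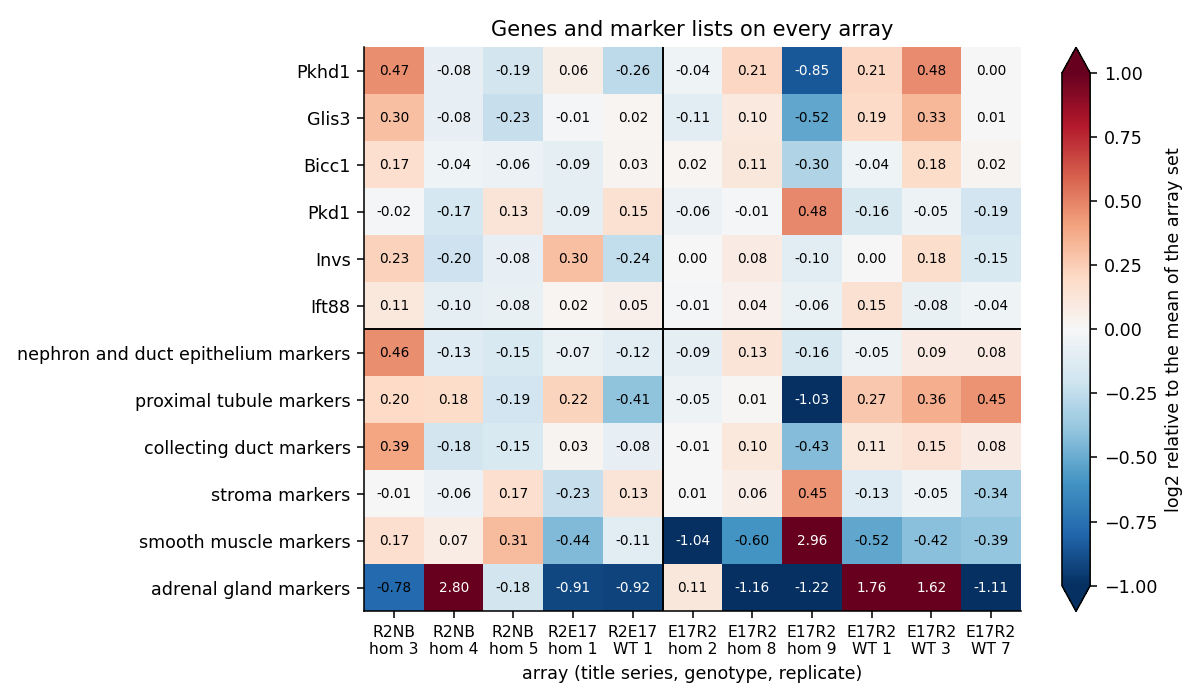
Centred log2 values relative to the mean of the array set, for the 6 genes (above the line) and for the mean of 6 marker lists (below it) on every array. E17R2 homozygous replicate 9 has Pkhd1 at -0.85, Glis3 at -0.52, Bicc1 at -0.30 and Pkd1 at 0.48 beside smooth muscle markers at 2.96, which is past the end of the colour scale.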

How the data were processed

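The authors deposited 1 intensity per probe set and array on a linear scale, and the submitters' processing notes name RMA, with no version. Log2 of the 45101 intensities was taken with no pseudocount, and 64 control probe sets were left out. The platform annotation gave 34945 probe sets exactly 1 symbol, 932 several and 9160 none. Symbols were updated through RefSeq gene identifiers (GRCm38.p6, 34741 matched).

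The tests used lmFit and eBayes of limma 3.58.1 (R 4.3.3), 2-sided, with Benjamini-Hochberg adjustment over 18193 genes and a threshold of 0.05. For values across sets or title series, each array's median over 45037 probe sets was subtracted. Comparisons of single arrays used a log2 difference of 1. Other scalings, filters, fits and arrays left out were tried. The fits were tested on simulated data.

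The 6 genes are on chromosomes 17 (Pkd1), 1 (Pkhd1), 10 (Bicc1), 4 (Invs), 14 (Ift88) and 19 (Glis3). The genes and lists were chosen with earlier results of these data known. Named were all members, list genes past the threshold or with the smallest p, and the 2 genes most like each member. The number of arrays limits the precision.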

Additional observations from a re-analysis of the deposited data

How the results depend on the processing

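In the E17R2 comparison none of the 6 genes passed under any alternative run. Estimates near 0 changed sign: Invs was 0.11 with both title series in 1 fit over 8 arrays and 0.03 after quantile normalization, Ift88 0.032 after quantile normalization, and with 1 array left out Invs ran from -0.0698 to 0.0597, Ift88 from -0.0697 to 0.0621 and Bicc1 from -0.18 to 0.0092. In the 8-array fit Pkd1 was 0.13 and Pkhd1 -0.28. The count of genes lower was 0 to 1 (Mrap, without wild-type replicate 7). No paired analysis was possible because E17R2 homozygous and wild-type arrays share no replicate number.

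In the contrast of the array sets, Pkhd1, Glis3 and Bicc1 kept direction and call under every alternative run. Ift88 was -0.089 after quantile normalization over the 11 arrays, -0.0012 with homozygous arrays alone and -0.013 to 0.033 with 1 array left out. With no centring all genes shifted by 1.02 at the median, Invs was 0.94, Pkd1 1.32 and Ift88 1.10, all 3 then called, and 16707 genes were higher and 99 lower, as the construction of that alternative entails. Without the R2NB arrays, and so with fewer arrays in the fit, 2620 genes were higher. With genes at or above percentile 50 alone 2063 were lower (61.8% of calls higher). In the main fit these genes already had 3448 higher and 2170 lower calls. The genes under percentile 50, which this filter leaves out, had 627 higher and 3647 lower. Pkd1 was 0.091 with homozygous arrays alone. Pkd1 at 0.37 without E17R2 homozygous replicate 9 and Invs at -0.26 after quantile normalization passed the test, and the cause was not tested.

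For R2NB minus R2E17 homozygous arrays, 2 genes were higher with all 11 arrays in the fit (Ang and Rpgrip1), and 2 higher (Ang and Kdm5d) and 1 lower (Xist) with median centring, none of them among the 6 genes. With median centring the Y-linked Kdm5d differed by 4.26 and Xist, made from the inactive X chromosome, by -6.13. The labels used here give no sex, so these arrays may differ in sex, and its part was not tested. With 1 R2NB array left out, Pkhd1 ran from -0.11 to 0.12, Glis3 from -0.064 to 0.11, Ift88 from -0.024 to 0.00067 and Pkd1 from -0.013 to 0.15. In the interaction 4 genes were lower with no centring (AI506816, Micu2, Nat8f2 and Odr4), and with 1 array left out 1 to 4 were higher and 2 to 8 lower, while Bicc1 ran from -0.072 to 0.13 and Ift88 from -0.029 to 0.084. For the R2E17 pair, 76.3% of the genes past a log2 difference of 1 were higher with median centring, 68.1% with none and 66.5% after quantile normalization.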
